A study of Salmo salar with 64 samples.

Results

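The period genes per2 (gene number 100301980) and per3 (gene number 106583133) were followed in Atlantic salmon at the onset of sexual maturation. They were picked from the deposited count table by those gene numbers, which gave 2 of its 81574 genes, 1 entry each. Messenger RNA had been sequenced from pituitary, ovary, liver and brain of female brood stock kept as a single management group in tanks. T1 fish were killed just before a long-light regime that sets off maturation, and T2, T3 and T4 fish were killed during it, with 2 weeks between time points. Each of the 16 groups of tissue and time point held 4 libraries, 64 in all. Groups are named by tissue and time point, and T1 is the control. No group kept on the earlier light regime up to T2 to T4 was analysed here, so long light, age and season cannot be told apart.

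Period proteins are the repressing arm of the circadian clock. CLOCK and BMAL (ARNTL) activate the period and cryptochrome genes, and the period and cryptochrome proteins then enter the nucleus and repress CLOCK and BMAL. In zebrafish, per2 is also switched on directly by light, including in isolated peripheral tissues, and per3 is a rhythmic gene. Period transcripts rise and fall within a day, and the time of day at which the fish were killed is not given in the sources used here.

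Levels are given as CPM, counts per M (mega) of a library's total after TMM scaling, a correction for differences in RNA composition, with replicates 1 to 4 in order. Total counts per library ran from 17.5 to 51.9 M, and per2 and per3 held between 91 and 2297 counts in a library. The 4 matched ovary markers, the 4 liver markers and the 6 pituitary hormone genes were each high in their own tissue. Only snap25a, a synaptic gene, was matched for brain. It ran from 6.75 to 208 CPM over the 16 brain libraries and was at or below 0.82 CPM in the other tissues. The study set brain aside because its replicates disagreed, and brain is therefore described apart. Of the blood markers hba was at 0 in all 64 libraries. In whole tissue, fewer cells of a type and less RNA per cell cannot be told apart.

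In the pituitary, per2 was higher at all 3 later time points than at T1. At T1 the level of per2 was 12.1, 10.5, 15.7 and 12.98 CPM, with a mean of 12.8 ± 2.19 CPM (SD, n = 4). At T2 it was 19.2, 51.2, 40.0 and 27.9 CPM, with a mean of 34.6 ± 14.0 CPM (SD, n = 4). At T3 it was 28.3, 38.8, 22.2 and 34.7 CPM, with a mean of 31.0 ± 7.25 CPM (SD, n = 4). The lowest later library therefore lay above the highest T1 library at T2 and T3, and replicate 1 was the lowest of T2. At T4 the level was 27.5, 33.2, 21.7 and 23.8 CPM, with a mean of 26.6 ± 5.08 CPM (SD, n = 4), and again no library overlapped with T1.

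**Figure D1:**
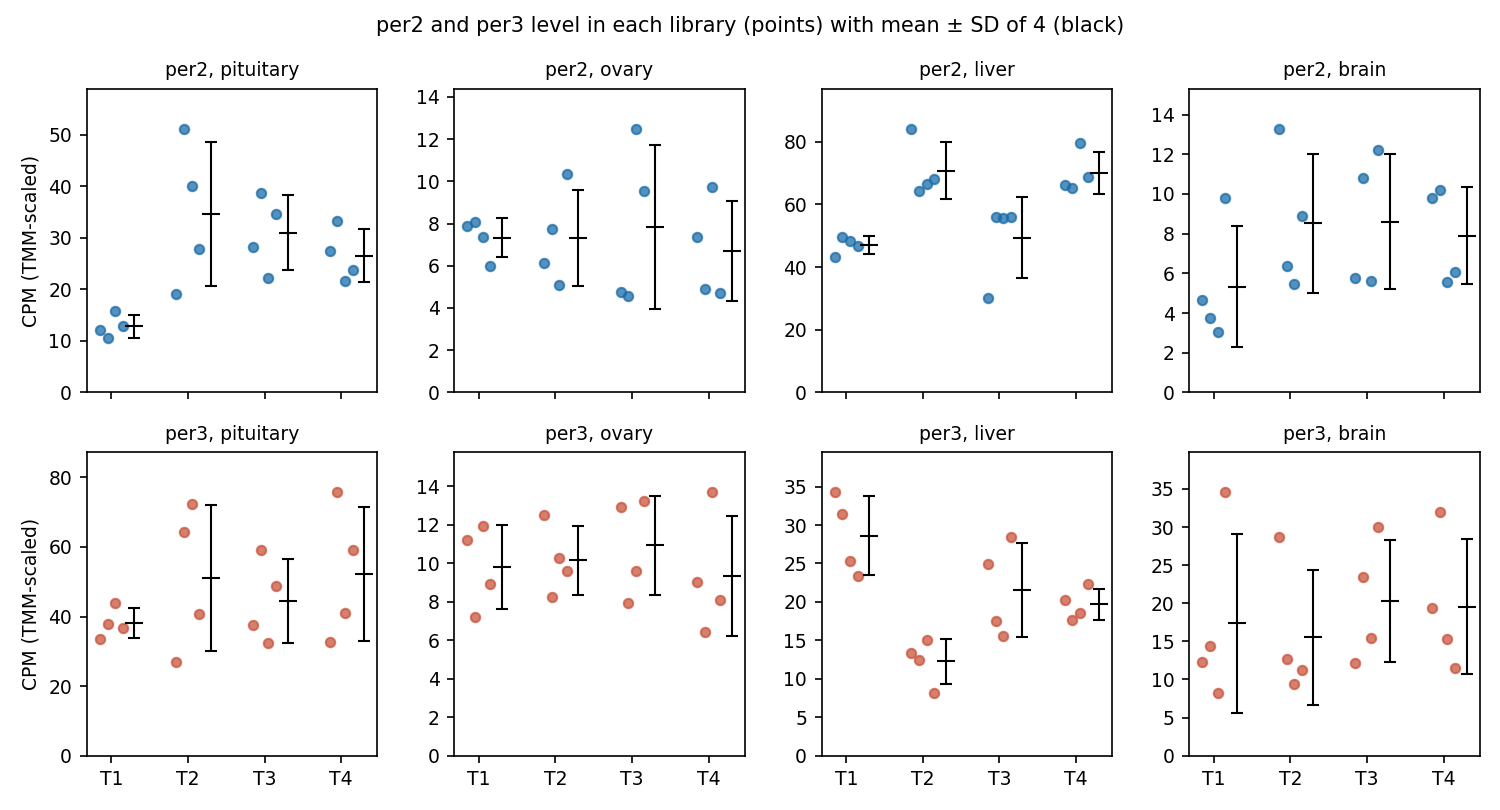
Level of per2 (blue, upper row) and per3 (red, lower row) in CPM of the TMM-scaled total, for each of 4 libraries per tissue and time point (points, replicates 1 to 4 from left to right), with the mean ± SD of 4 in black; every vertical axis starts at 0 and has its own range. In the pituitary all later per2 libraries, at 19.2 to 51.2 CPM, lie above the highest T1 library at 15.7 CPM, and in the liver the T2 per3 libraries, at 8.17 to 15.04 CPM, lie below the lowest T1 library at 23.4 CPM.

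A gene was called as changed at a Benjamini-Hochberg adjusted p below 0.05 over all genes tested. An absolute log2 fold change of more than 1 was also needed. Both thresholds are those of the study. The study reported fewer changed pituitary genes at T2 and T3 than were called here, so a call here need not be a call of the study. By edgeR's quasi-likelihood test pituitary per2 rose at T2 by a log2 fold change of 1.46 (SE 0.274, adjusted p = 0.0258), at T3 by 1.29 (SE 0.183, adjusted p = 0.0108) and at T4 by 1.07 (SE 0.160, adjusted p = 0.0178). It was called at all 3 time points, and per3 at none. The share of all genes called was 1.53% at T2, 1.06% at T3 and 1.79% at T4. The share called as higher was 1.21%, 0.819% and 1.35%, so the per2 call stood among a small share of pituitary genes. The share of genes whose later libraries all lay above all T1 libraries was larger, at 7.55%, 6.52% and 7.32%. The mean log2 level of T2, T3 and T4 lay 1.27 above that of T1 (SE 0.224, edgeR adjusted p = 0.00392), a comparison that called 2.52% of genes. Between T2, T3 and T4 the differences in per2 were within the error, with log2 differences of -0.16 for T3 against T2, -0.23 for T4 against T3 and -0.39 for T4 against T2 and edgeR adjusted p from 0.964 to 0.9999. The share of genes called in these steps was 0.0628%, 0.129% and 0.389%.

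These calls were close to the threshold. The T2 call was lost without replicate 1 or 2 of T1 (adjusted p = 0.0870 and 0.0753, edgeR) and without replicate 3 or 4 of T2 (0.0571 and 0.0531). The T3 call was lost without replicate 1 of T1 (0.0510). The T4 call was lost without replicate 1 of T1 (0.0779) or replicate 4 of T4 (0.0510), and without replicate 2 of T1 or replicate 2 of T4 because the fold change fell to 0.98 and 0.94. The direction was the same in all of these fits, and the call of the mean of T2 to T4 was kept in each fit that left out a replicate number, with log2 fold changes from 1.02 to 1.43.

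Markers of other cells were low in the pituitary. The summed level of the 6 pituitary hormone genes was 178800 to 234300 CPM at T1, 132900 to 230000 CPM at T2, 145100 to 219400 CPM at T3 and 132200 to 199400 CPM at T4, and the library highest in per2 at each of T2 and T4 (replicate 2) was the lowest in that sum. The 4 liver markers summed to 19.9 to 33.1 CPM at T1, 65.4 to 102 CPM at T2, 46.0 to 50.3 CPM at T3 and 17.9 to 29.6 CPM at T4, against 35930 to 105000 CPM in the liver itself. The part of the hormone genes and of the liver markers in the per2 result was not tested.

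Pituitary per3 did not pass the test at any time point. At T1 the level of per3 was 33.5, 37.8, 43.9 and 36.8 CPM. At T2 it was 26.9, 64.3, 72.5 and 40.8 CPM, at T3 37.5, 59.1, 32.4 and 48.8 CPM, and at T4 32.7, 75.8, 41.1 and 59.1 CPM. At each later time point 2 libraries lay above all T1 libraries and 1 lay below them, so the groups overlapped. The log2 fold changes were 0.46 (SE 0.267, adjusted p = 0.309 by edgeR) at T2, 0.25 (SE 0.178, 0.425) at T3 and 0.49 (SE 0.232, 0.210) at T4.

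**Figure D2:**
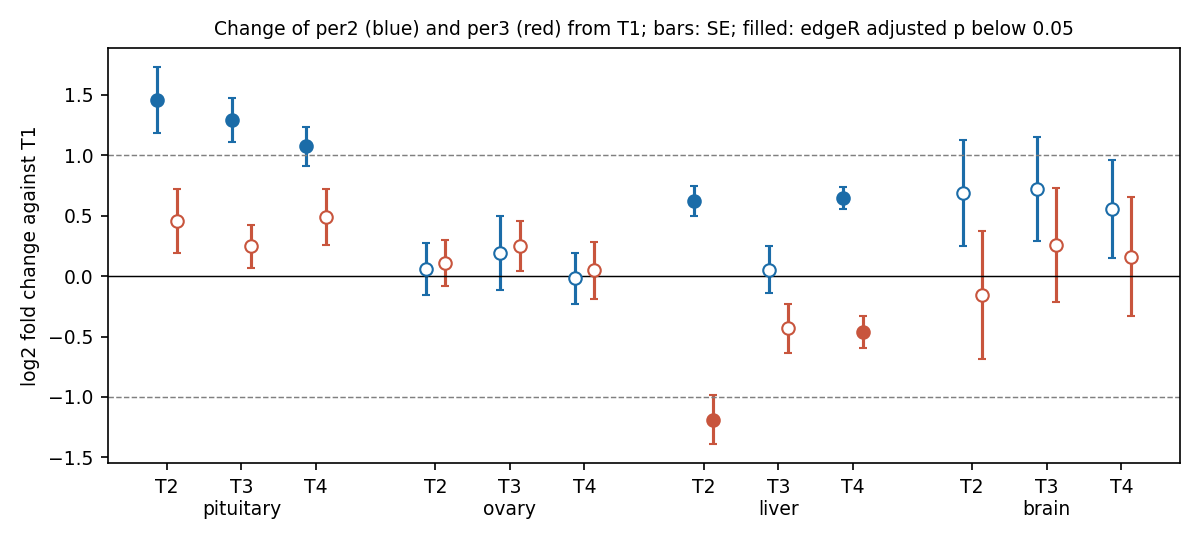
Log2 fold change of per2 (blue) and per3 (red) at T2, T3 and T4 against T1 in each tissue, with bars of 1 SE, filled points where the edgeR adjusted p is below 0.05 and dashed lines at the fold threshold of -1 and 1. The 3 pituitary per2 points, at 1.46, 1.29 and 1.07, and the liver per3 point of T2, at -1.19, are the only filled points beyond the dashed lines.

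In the liver the period genes moved in opposite directions at T2. Liver per3 at T1 was 34.3, 31.5, 25.4 and 23.4 CPM, with a mean of 28.6 ± 5.13 CPM (SD, n = 4). At T2 it was 13.4, 12.4, 15.04 and 8.17 CPM, with a mean of 12.2 ± 2.93 CPM (SD, n = 4), and all 4 libraries lay below all T1 libraries. The log2 fold change was -1.19 with an SE of 0.203 (edgeR adjusted p = 0.00218), and the gene was called. With limma on the deposited log2 values the change was -0.96, under the fold threshold. Many liver genes were called at T2, 15% in all and 6.72% as lower, so liver per3 was 1 of a large set. All later libraries lay below all T1 libraries for 17.8% of genes at T2 and 17.7% at T4.

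The fall in per3 was smaller at the later time points. At T3 liver per3 was 24.9, 17.5, 15.5 and 28.5 CPM, which overlapped with T1 (log2 fold change -0.43, SE 0.202, adjusted p = 0.159 in edgeR, with 7.65% of genes called). At T4 it was 20.2, 17.7, 18.6 and 22.3 CPM, all below T1. The log2 fold change was -0.46 (SE 0.135, adjusted p = 0.0278, edgeR). It did not reach the fold threshold, which 11.3% of genes passed with the adjusted p. As CPM of the plain total, without TMM scaling, T4 overlapped with T1. On that scale replicate 1 of T4 was at 12.3 CPM and replicate 4 of T1 at 11.5 CPM. In the fit of all 16 liver libraries the log2 level of T4 lay 0.71 above that of T2 (SE 0.201, edgeR adjusted p = 0.0406) and that of T3 0.76 above it (SE 0.202, 0.0814). The share of genes called was 3.6% for T4 against T2 and 0.42% for T3 against T2. In that fit T4 against T1 had an edgeR adjusted p of 0.0929, so the difference of T4 from T1 passed the adjusted p in the fit of 8 libraries and not in this one.

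Liver per2 at T1 was 43.3, 49.7, 48.5 and 46.9 CPM, with a mean of 47.1 ± 2.80 CPM (SD, n = 4). The T2 libraries held 84.2, 64.2, 66.6 and 68.1 CPM, with a mean of 70.8 ± 9.09 CPM (SD, n = 4). At T4 it was 66.1, 65.3, 79.7 and 68.8 CPM, with a mean of 69.96 ± 6.63 CPM (SD, n = 4). The T2 and T4 libraries all lay above T1. The log2 fold changes were 0.62 (SE 0.121, edgeR adjusted p = 0.00415) and 0.65 (SE 0.0892, 0.00186), past the adjusted p and under the fold threshold, so per2 was not called. On the adjusted p alone 33.6% of liver genes passed at T2 and 32.8% at T4, and all later libraries lay above all T1 libraries for 16.3% and 14.4% of genes.

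At T3 liver per2 was 29.99, 56.0, 55.5 and 56.0 CPM. Replicate 1 was below all T1 libraries and the other 3 were above them, and the fold change was 0.05 on the log2 scale, with an SE of 0.194 and an edgeR adjusted p of 0.883. Without that library it was 0.24, still uncalled. The log2 level of T4 exceeded that of T3 by 0.58 (SE 0.166, edgeR adjusted p = 0.0494, with 2.69% of genes called), a difference that includes the low library, and T3 differed from T2 by -0.57 (SE 0.167, 0.103). Over T2 to T4 together the mean of liver per2 was 0.45 above T1 (SE 0.140, edgeR adjusted p = 0.0207) and that of per3 was -0.68 from T1 (SE 0.157, 0.00347). Neither reached the fold threshold, which 10.6% of genes passed together with the adjusted p.

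The abundant liver genes also differed between time points. The summed level of the markers apoa1, alb2, fga and fgg was 91090 to 98280 CPM at T1, 35930 to 85440 CPM at T2, 66860 to 105000 CPM at T3 and 39190 to 73430 CPM at T4. The library with the highest sum, replicate 1 of T3, had the lowest per2 level of all liver libraries, and the library with the lowest sum, replicate 1 of T2, had the highest, but within T4 the library with the lowest sum, replicate 2, had the lowest per2 level. The part of these genes in the per2 and per3 values was not tested.

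In the ovary neither gene passed the test, and the groups overlapped. Ovary per2 at T1 was 7.86, 8.09, 7.35 and 6.01 CPM. The T2 libraries held 6.13, 7.72, 5.07 and 10.3 CPM, at T3 4.75, 4.56, 12.5 and 9.53 CPM, and at T4 7.36, 4.92, 9.74 and 4.71 CPM. The spread widened from an SD of 0.932 CPM at T1 to 3.87 CPM at T3 with means of 7.33 and 7.83 CPM. The log2 fold changes were 0.06 (SE 0.218), 0.19 (SE 0.308) and -0.02 (SE 0.211), with edgeR adjusted p of 0.896, 0.737 and 0.957.

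Ovary per3 at T1 was 11.2, 7.19, 11.9 and 8.94 CPM, and the later libraries ran from 6.44 to 13.7 CPM. The log2 fold changes were 0.11 (SE 0.189), 0.25 (SE 0.209) and 0.05 (SE 0.237), with edgeR adjusted p of 0.765, 0.494 and 0.905. Of all ovary genes 0.972% were called at T2, 3.61% at T3 and 11.1% at T4. Even at T4, when calls were most numerous, most ovary genes were not called, and the period genes were among these.

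Brain per3 varied widely between libraries. Brain per3 at T1 was 12.3, 14.4, 8.23 and 34.6 CPM. The T2 libraries held 28.7, 12.7, 9.39 and 11.3 CPM, at T3 12.2, 23.5, 15.5 and 30.0 CPM, and at T4 19.4, 31.97, 15.3 and 11.6 CPM. No time point lay apart from T1, and the log2 fold changes of -0.16, 0.25 and 0.16 had SE of 0.526, 0.472 and 0.489. Brain per2 at T1 was 4.67, 3.77, 3.07 and 9.78 CPM. At T2 it was 13.3, 6.39, 5.47 and 8.90 CPM, at T3 5.78, 10.8, 5.61 and 12.2 CPM, and at T4 9.81, 10.2, 5.59 and 6.05 CPM. All 12 later per2 libraries were above the T1 mean of 5.32 CPM, but replicate 4 of T1 overlapped with them. The log2 fold changes were 0.69 (SE 0.438), 0.72 (SE 0.430) and 0.56 (SE 0.404), and none passed (edgeR adjusted p = 0.462, 1 and 0.963). Without replicate 4 of T1 they were 1.19, 1.19 and 1.02, and none passed (edgeR adjusted p = 0.225, 1 and 0.656).

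In brain the edgeR test called 0% of genes at each time point. At an unadjusted p below 0.05 there were 5249 of 34964, 867 of 34375 and 1736 of 34267 genes. DESeq2 called 544, 14 and 138. The neuronal marker snap25a was 80.5, 133, 25.6 and 208 CPM at T1, 121, 38.3, 20.4 and 34.5 CPM at T2, 66.7, 116, 105 and 153 CPM at T3, and 110, 155, 64.1 and 6.75 CPM at T4. After the mean of each time point was taken off, log2 snap25a followed log2 per3 over the 16 libraries with r = 0.822 (permutation p = 8e-05, adjusted 0.00024) and rho = 0.926 (permutation p = 1e-05, adjusted 3e-05, the raw value being the smallest that 100000 resamples can give). For per2 r was 0.680 (permutation p = 0.00251, adjusted 0.00377) and rho 0.697 (permutation p = 0.00377, adjusted 0.00566). Without the 2 libraries farthest from the median of snap25a r was 0.868 for per3 and 0.738 for per2. These relations were chosen after the values were seen, 3 were computed, and the mix of brain regions in a library was not tested.

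The ratio of per2 to per3 within a library does not depend on how the library is scaled. Without transcript lengths it does not compare the level of the genes, so only its change is read. In the pituitary the log2 ratio of counts at T1 was -1.47, -1.85, -1.48 and -1.50. It was -0.49, -0.33, -0.86 and -0.55 at T2 and -0.41, -0.61, -0.54 and -0.49 at T3, and it was -0.25, -1.19, -0.92 and -1.31 at T4. All later libraries were above all T1 libraries, by 1.02, 1.06 and 0.66 on average. The T3 libraries were the closest together, with an SD of 0.085, although their per2 levels ran from 22.2 to 38.8 CPM.

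In the liver the ratio at T1 was 0.33, 0.66, 0.93 and 1.00. It was 2.65, 2.37, 2.14 and 3.05 at T2, 0.27, 1.68, 1.84 and 0.98 at T3, and 1.71, 1.88, 2.099 and 1.62 at T4. T2 and T4 lay apart from T1 by 1.82 and 1.10 on average, and T3 overlapped with it (0.46). The T2 ratio was 3.54 times that of T1.

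**Figure D3:**
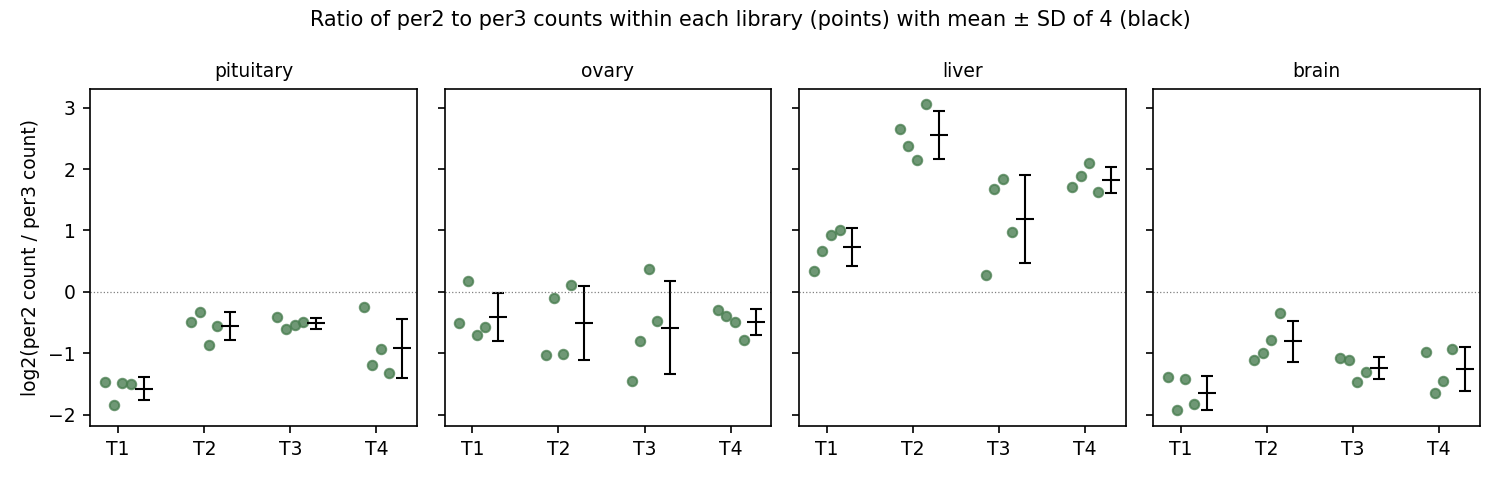
Log2 ratio of per2 counts to per3 counts within each library (points, replicates 1 to 4 from left to right) by tissue and time point, with the mean ± SD of 4 in black and a dotted line at 0. The later pituitary libraries, at -1.31 to -0.25, lie above T1 at -1.85 to -1.47, the liver reaches 3.05 at T2, and the ovary stays between -1.44 and 0.38.

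In brain the ratio at T1 was -1.39, -1.93, -1.42 and -1.82, and at T2 -1.11, -0.99, -0.78 and -0.34. The T2 libraries all lay above T1, by 0.84 on average, although the levels of both genes overlapped. At T3 and T4 the difference was 0.40 and 0.39, with overlap. The ratio ran against snap25a in brain (r = -0.605, permutation p = 0.0421, adjusted 0.0421, and rho = -0.638, permutation p = 0.0286, adjusted 0.0286, n = 16, and r = -0.504 without the 2 farthest libraries), and snap25a had its lowest median at T2. Of the blood markers epor was at 20.4 to 35.2 CPM in the T2 brain libraries and at 0.744 to 19.4 CPM in those of T1. It ran from 0.682 to 35.4 CPM at T3 and from 1.145 to 46.5 CPM at T4, so high values were not limited to T2. The part of snap25a and of epor in the T2 ratio was not tested. In the ovary the differences were -0.11, -0.18 and -0.09, within the spread.

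With 4 libraries against 4, the two-sided exact permutation test cannot go below p = 0.0286. The 6 comparisons without overlap, all 3 in the pituitary, T2 and T4 in the liver and T2 in brain, reached that value, which became 0.0572 after adjustment over the 12 comparisons. The exact permutation p was 0.314 for liver T3, 0.0857 and 0.171 for brain T3 and T4, and 0.771 to 0.8286 in the ovary. The share of other gene pairs whose ratios do not overlap was not computed. Of single liver genes, 16.3% lay wholly above T1 at T2 and 17.8% wholly below. The ratio is formed from the counts behind the levels given above and is not separate evidence.

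per2 and per3 varied together between libraries in brain, and in the pituitary by r but not by rho after adjustment. Over 16 libraries, after the mean of each time point was taken off, r was 0.805 in the pituitary (permutation p = 0.00425, adjusted 0.0340) with rho = 0.753 (permutation p = 0.00862, adjusted 0.0690), and r was 0.714 without the 2 libraries farthest from the median of per2. In brain r was 0.912 (permutation p = 0.00025, adjusted 0.00400) with rho = 0.853 (permutation p = 0.00111, adjusted 0.0178), and r was 0.844 without 2 libraries. In the ovary r was 0.270 and rho 0.203 (permutation p = 0.379 and 0.510), and in the liver r was -0.227 and rho -0.188 (permutation p = 0.711 and 0.579). Both genes of a library share its scaling and its cell mix, and in brain both followed snap25a. These 4 relations belong to a family of 16. The other 12 set the same gene in different tissues against each other by the fish number of the labels. None passed, with permutation adjusted p from 0.503 to 0.863 for r and 0.486 to 0.804 for rho. No source used here says that an equal number in different tissues is the same fish. Of 24 sets of tissue pair and time point, 4 had every correlation between libraries of equal number above 0.1. These 12 relations therefore cannot show whether the period genes of a fish vary together across its tissues.

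**Figure D4:**
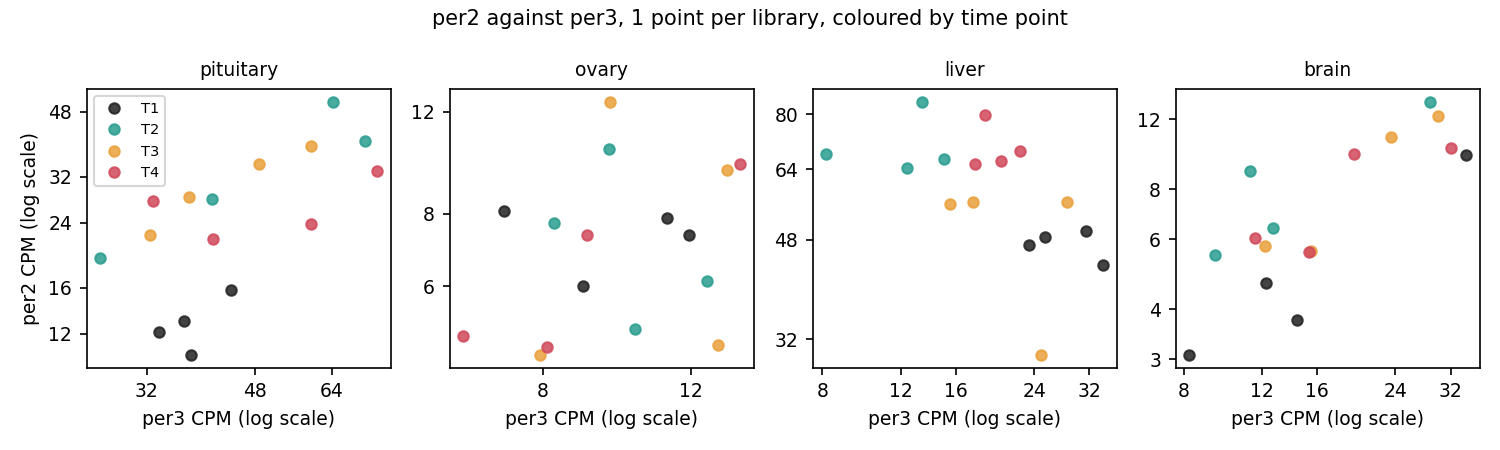
Level of per2 against per3 in CPM, both on log scales, with 1 point per library coloured by time point, in a panel per tissue. The 4 black pituitary T1 points, at 10.5 to 15.7 CPM of per2, lie below the other 12. Their per3 levels, 33.5 to 43.9 CPM, lie within the wider range of the later libraries, 26.9 to 75.8 CPM. In brain both genes rise together across libraries (r = 0.912 within time points).

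The changes were next compared between tissues in a fit of all 64 libraries. The per2 change from T1 to the mean of T2 to T4 was larger in pituitary than in ovary by a log2 difference of 1.28 (SE 0.365), and the edgeR adjusted p of 0.0559 missed the threshold. With only the libraries of these tissues in the fit the difference was 1.28 and the adjusted p 0.0226, edgeR. The per3 change differed between pituitary and liver by 1.11 (SE 0.397, edgeR adjusted p = 0.0613), and by 1.12 with an adjusted p of 0.0113 in the fit of these tissues alone. The share of genes called in the fit of 64 libraries was 1.16% for pituitary against ovary and 5.26% for pituitary against liver. It was 0.29% for pituitary against brain, 9.95% for ovary against liver, 1.26% for ovary against brain and 7.2% for liver against brain. For pituitary against liver the per2 changes differed by 0.86 (SE 0.361, edgeR adjusted p = 0.128). For liver against brain the per3 changes differed by -0.82 (SE 0.397, 0.178), and without replicate 4 of each group by -1.52 (0.0151). None of the 12 differences, 6 tissue pairs for each gene, passed in the fit of all libraries with TMM scaling. With RLE scaling, another size-factor method, 1 did, the per3 change between pituitary and liver, at 1.18 (edgeR adjusted p = 0.0443).

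The levels themselves differed between tissues. Over 16 libraries per2 averaged 59.3 ± 13.9 CPM (SD) in the liver, 26.2 ± 11.3 CPM in the pituitary, 7.59 ± 3.11 CPM in brain and 7.29 ± 2.35 CPM in the ovary. Pituitary was below liver by a log2 difference of -1.20 (SE 0.157, edgeR adjusted p = 1.298e-09) and above brain by 1.74 (SE 0.161, 4.721e-14). Ovary and brain did not differ beyond their spread (-0.08, SE 0.158, edgeR adjusted p = 0.615). The share of all genes called was 54.6% for pituitary against liver, 42% for pituitary against brain, 67.3% for pituitary against ovary, 65.7% for ovary against liver, 71.4% for ovary against brain and 58.7% for liver against brain, so a difference in level is common.

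For per3 the order was another. It averaged 46.5 ± 15.1 CPM (SD) in the pituitary, 20.5 ± 7.18 CPM in the liver, 18.2 ± 8.71 CPM in brain and 10.1 ± 2.29 CPM in the ovary. Pituitary was above liver by 1.28 (SE 0.174, edgeR adjusted p = 3.163e-09), but at T1 alone the difference was 0.45 (SE 0.343, edgeR adjusted p = 0.256). Over all time points liver and brain did not differ beyond their spread (0.09, SE 0.172, 0.633), and ovary was below brain by -0.90 (SE 0.172, 4.597e-06). These orders depend on the scaling, because TMM factors of liver libraries were 0.43 to 0.66 and those of ovary libraries 1.35 to 1.68. As CPM of the plain total, liver per2 averaged 31.1 CPM and pituitary per2 28.5 CPM, which no longer differed beyond their spread (-0.20, edgeR adjusted p = 0.266). On that scale liver per3, at 10.4 CPM, was the lowest of the tissues, below brain by -1.23 and with ovary 0.56 above it.

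Other clock genes were described by a list of 20 genes that includes per2 and per3. Of the cryptochrome family only cry5 and cry-dash were tested in it, so the list covers only a part of the clock. A further period gene, per1b, was not called in any tissue. In the pituitary it averaged 188 CPM at T1 and 161 to 163 CPM later (log2 fold changes -0.19, -0.20 and -0.18, edgeR adjusted p = 0.218, 0.208 and 0.254). In the liver it averaged 157 CPM at T1 and 96.3, 122 and 112 CPM later, with log2 fold changes of -0.67, -0.38 and -0.43 that passed the adjusted p (0.00282, 0.0294 and 0.0419, edgeR) and not the fold threshold. In the liver per1b and per3 were thus both lower at T2 while per2 was higher. In ovary and brain per1b log2 fold changes lay between -0.10 and 0.29 with edgeR adjusted p of 0.0903 or more.

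In the pituitary none of the other 16 clock genes tested was called at T2, T3 or T4 by edgeR. Of these 16 genes, 5, 1 and 0 passed the adjusted p alone, beside 4.9%, 2.49% and 5.59% of all genes. At an unadjusted p below 0.05 there were 7, 7 and 5, beside 8331 of 31997, 7390 of 31867 and 8649 of 32030 genes over all. Their median log2 fold change was 0.25, 0.20 and 0.11, beside medians over all genes of 0.00, -0.01 and 0.01. In the liver 15 were tested. The cryptochrome relative cry-dash, a photolyase-like flavoprotein, was called as higher at all 3 time points, with log2 fold changes of 1.73 (SE 0.324, edgeR adjusted p = 0.00339), 1.20 (SE 0.365, 0.0432) and 2.05 (SE 0.409, 0.00610). It averaged 1.64 CPM at T1 and 5.36, 3.81 and 6.59 CPM later. Over all genes 8.27%, 4.2% and 5.99% were called as higher. The T3 call was lost without replicate 1, 3 or 4 of T1 or replicate 2 or 3 of T3 (edgeR adjusted p of 0.0849 to 0.111). At T2 1 further clock gene, roraa, a nuclear receptor that activates BMAL genes, was called as lower (log2 fold change -1.14, SE 0.249, edgeR adjusted p = 0.00727, and -0.98 without replicate 1 of T2). Over all liver genes 6.72% were called as lower at T2. Outside the liver cry-dash was not called. Its pituitary log2 fold changes at T2, T3 and T4 were 0.55, 0.301 and 1.345 (edgeR adjusted p = 0.0497, 0.269 and 0.0693). Those of ovary and brain lay between -0.001 and 1.348.

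In the ovary bhlhe40 and bhlhe41, repressors that compete with CLOCK and BMAL, were called as higher at T3 and T4. The level of bhlhe40 averaged 2.43 CPM at T1, 4.91 CPM at T3 and 7.14 CPM at T4, with log2 fold changes of 1.12 (SE 0.279, edgeR adjusted p = 0.0487) and 1.75 (SE 0.437, 0.0256). The level of bhlhe41 averaged 0.439, 1.37 and 2.56 CPM, with log2 fold changes of 1.74 (SE 0.401, edgeR adjusted p = 0.0414) and 2.75 (SE 0.610, 0.0198). At T3 each was lost as a call without any 1 library other than replicate 4 of T3. At T4 bhlhe40 was lost without any 1 of the T1 replicates or replicate 2 of T4, and bhlhe41 without replicate 1, 3 or 4 of T1 or replicate 2 of T4. The direction was kept in all of these fits. Of the 17 other clock genes tested in the ovary 0 passed at T2, 2 at T3 and 5 at T4, each as higher, beside 3.51% and 10.6% of all genes called as higher at T3 and T4. Besides bhlhe40 and bhlhe41, the T4 calls were rorca (log2 fold change 1.273, edgeR adjusted p = 0.0167), roraa (1.145, 0.0293) and clocka (1.051, 0.0224). The gene roraa was thus called as higher in the ovary at T4 and as lower in the liver at T2. At T2, 6 of the 17 had an unadjusted p below 0.05 by edgeR, beside 8075 of 30963 genes over all. In brain 0 of 17 were called by edgeR at each time point. The unadjusted p was below 0.05 for 0, 0 and 3, beside 5249 of 34964, 867 of 34375 and 1736 of 34267 genes over all.

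**Figure D5:**
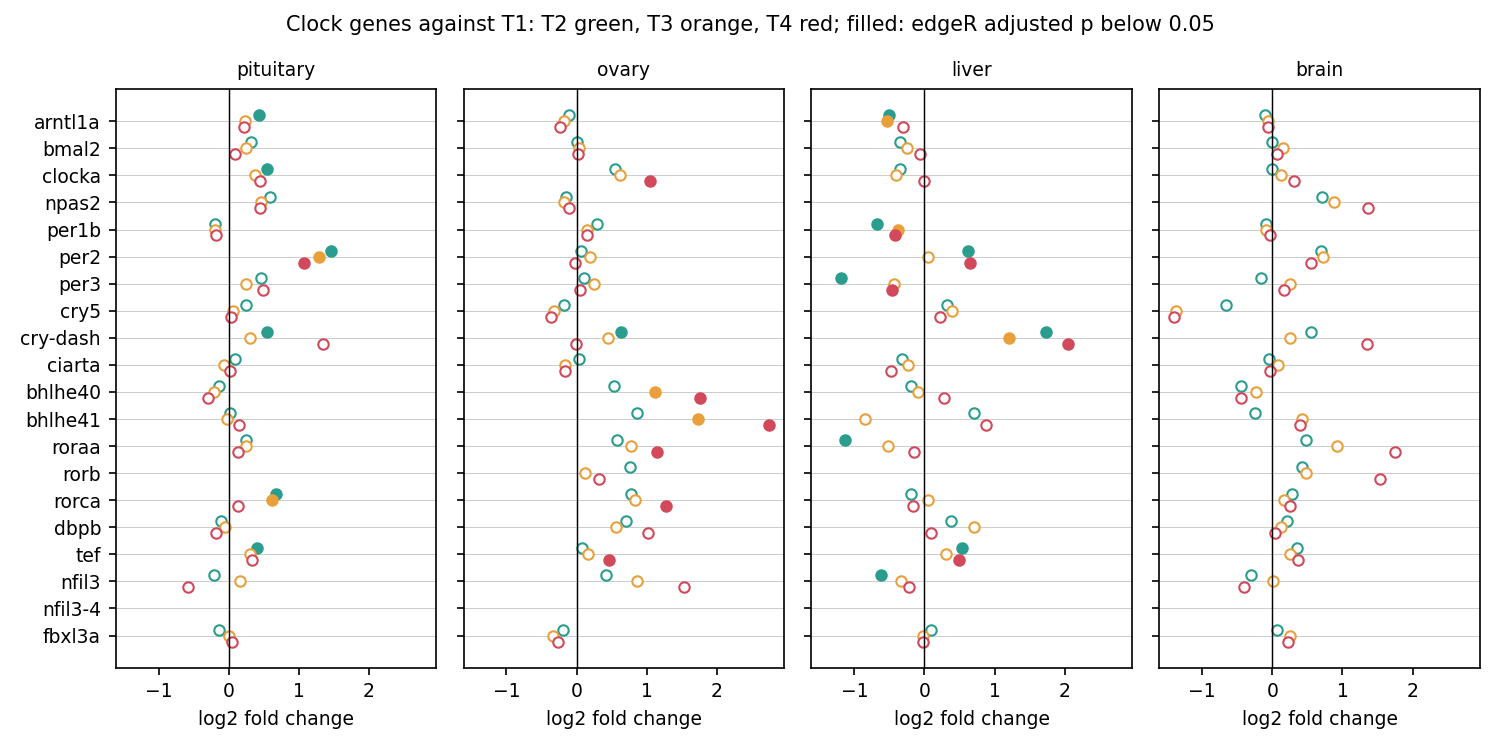
Log2 fold change against T1 of the clock genes that were tested, by tissue, with T2 in green, T3 in orange and T4 in red, filled where the edgeR adjusted p is below 0.05. In the pituitary per2 is the only gene with filled points beyond 1, in the liver per3 and per1b lie left of 0 and cry-dash reaches 2.05, and in the ovary bhlhe41 reaches 2.75.

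A list of 7 genes known from zebrafish as light-induced had 5 matches, cry5, cry-dash, xpc, ddb2 and lonrf1. In the pituitary 1 of the 5 was called as higher at T2 and T3, beside 1.21% and 0.819% of all genes. This was lonrf1, which encodes a protein with a LON domain and a RING finger. It averaged 16.3 ± 2.16 CPM (SD, n = 4) at T1, 38.2 ± 11.8 CPM at T2, 32.2 ± 8.96 CPM at T3 and 31.8 ± 5.67 CPM at T4. The log2 fold changes were 1.26 (SE 0.212, edgeR adjusted p = 0.0189), 1.01 (SE 0.190, 0.0289) and 0.99 (SE 0.145, 0.0178), the last just under the fold threshold. The T2 call was lost without replicate 1 or 2 of T1 (edgeR adjusted p = 0.0613 and 0.0606), and the T3 call without replicate 1, 2 or 4 of T1 or replicate 2 or 4 of T3. In the pituitary lonrf1 and per2 thus had changes of like size in the same direction. In the liver lonrf1 went the other way, with log2 fold changes of -0.94, -0.82 and -0.76, of which only that of T4 passed the adjusted p (0.0147, edgeR). Of the 5 genes cry-dash was called as higher in the liver at all 3 time points. There ddb2, a damage-recognition protein of nucleotide excision repair, was called as lower at T3 (-1.11, SE 0.279, edgeR adjusted p = 0.0209). The liver median of the 5 was -0.786, -0.776 and -0.367 at T2, T3 and T4, so cry-dash went against most of the list. On the adjusted p alone 1, 2 and 2 of the 5 passed as lower. In either direction 33.6%, 19.5% and 32.8% of all liver genes passed it. Over all liver genes 8.27%, 4.2% and 5.99% were called as higher at T2, T3 and T4, and 3.44% as lower at T3. In ovary and brain 0 of the 5 were called by edgeR, and 1, 1 and 0 in the ovary and 1, 0 and 1 in brain had an unadjusted p below 0.05 at T2, T3 and T4. Over all genes that p was met by 8075 of 30963, 8071 of 31061 and 11879 of 31619 in the ovary. In brain it was met by 5249 of 34964, 867 of 34375 and 1736 of 34267.

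The genes most like per2 and per3 were found by the correlation of log2 CPM over the 64 libraries after the mean of each tissue was taken off, among 19824 genes with a mean of at least 1 CPM in each tissue. For per2 these were gene 106570950 (r = 0.704), LOC106587616 (0.685), LOC106570952 (0.659), usp22, which encodes a ubiquitin-specific protease (0.651), and LOC106569851 (0.628). LOC106587616 averaged 14.9 CPM in the pituitary at T1 and 28.8, 37.8 and 27.2 CPM at T2, T3 and T4. For per3 they were LOC106589429 (r = 0.739), LOC106577019 (0.734), syne2b, a nesprin of the nuclear envelope (0.725), stk17al, a serine/threonine kinase (0.708), and LOC106606286 (0.706). Without brain these genes took, in the same order, places 28, 60, 61, 46 and 40 for per2 and places 179, 10, 5, 167 and 897 for per3. The correlation of per2 with per3 was 0.393, or 0.171 without brain. Libraries of a tissue share batch, depth and cell mix, and these values are a description.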

How the data were processed

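Messenger RNA of 4 tissues at 4 time points was analysed, with 4 libraries per group. The labels call these biological replicates. The edgeR p-values weigh a difference against the spread between these replicates. Per the labels and the methods of the study, the authors mapped paired-end reads to ICSASG_v2 with TopHat2 2.1.1 and counted uniquely assigned exon reads in HTSeq 0.7.2 with the strand option reverse. The deposited counts are whole numbers per gene and library, not normalized. Reads shared with near-identical copies are dropped, so levels of genes with close paralogs are uncertain. A second table deposited by the authors holds log2 values, which equalled log2(CPM + 1) within 3.7e-05 although the methods speak of FPKM. It was used only as an alternative. Total counts per library were 23.0 to 29.0 M in pituitary, 18.6 to 30.6 M in ovary, 20.6 to 34.9 M in liver and 17.5 to 51.9 M in brain.

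Counts were tested with edgeR 4.0.16 in R 4.3.3 (filterByExpr, TMM, quasi-likelihood), fitting only the 8 libraries compared, and the mean of T2 to T4 and the steps between later time points in fits of 16 libraries. Tissues were compared in a fit of 64. p-values were adjusted over all genes tested. The scripts recovered most planted changes in data simulated with the mean levels and library sizes of these data. The planted changes were larger than those of per2 and per3, and the simulated spread was a fixed value. That check therefore does not bear on calls near the threshold. Ratios used a pseudocount of 0.5 and an exact permutation test, and correlations used 100000 permutations within time points. Alternatives were RLE scaling, total counts, no filter, DESeq2 1.42.0, limma 3.58.1 on the deposited log2 values, other sets of libraries, the replicate number as a block and each library left out. Total counts and RLE scaling of the levels were added after the data were seen. No pair of libraries agreed within sampling noise.

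Named genes were per2, per3, the other period gene, genes of the clock and light lists called at 2 or more later time points in a tissue, and the 5 genes most like each period gene. Of 20 clock symbols 20 matched, and of 7 light symbols 5. roraa, rorca, clocka and ddb2 were chosen after their values were seen. Symbols came from the RefSeq table of Ssal_v3.1, which is not the mapping assembly, so no coordinates are given, and sequences were not used here. Members and lists were chosen with earlier results of these data known.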

Additional observations from a re-analysis of the deposited data

Results flagged for a closer look

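Of 48 groups of 4 libraries tested for a library far from the others (levels of per2, levels of per3 and their ratio in 16 groups), 2 had one, and chance gives about 1 in 20 groups. Replicate 1 of liver T3 held 29.99 CPM of per2 while the other 3 held 55.5 to 56.0 CPM, a gap of 0.981 of the group's range. The same library had the highest summed level of liver markers, 105000 CPM. Replicate 2 of pituitary T1 had a log2 ratio of per2 to per3 of -1.849 while the others were at -1.50 to -1.47, a gap of 0.908 of the range.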

How the results depend on the processing

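Log2 values are given. Of 580 alternative settings of 68 edgeR results on per2 and per3, 519 kept the direction and the side of the threshold. They include the adjusted p alone, which is read from the main fit. Many of these results were uncalled in the main fit and stayed so. The numbers shared by samples paired no time points (0 of 12 sets had every correlation above 0.1), and with the replicate block pituitary per2 at T3 was 1.2754 (adjusted p 0.0620). The block changed no other call of per2 or per3. The T3 calls of lonrf1 in pituitary and of bhlhe40 and bhlhe41 in ovary were lost with it (0.9692, 1.0970 and 1.5982). It gave 76 calls over all genes in place of 339 for pituitary T3, 25 in place of 301 for ovary T2 and 1 in place of 1121 for ovary T3. On the adjusted p alone liver per2 passed at T2 (0.6214), T4 (0.6464) and over T2 to T4 (0.4497), and liver per3 at T4 (-0.4626) and over T2 to T4 (-0.6846). On the deposited log2 values with limma liver per3 at T2 was -0.9585, under the fold threshold. With only both tissues in the fit the per2 change, pituitary minus ovary, was 1.2781 and the per3 change, pituitary minus liver, 1.1223, both called.

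With RLE scaling the per3 change, pituitary minus liver, was 1.1776 and called, and per3 levels were called for ovary minus liver over all time points (-1.0402) and ovary minus brain at T1 (-1.0200) and over all (-1.0478), while liver minus brain turned to -0.0076. On total counts, per2 levels lost their call for pituitary minus liver at T1 (-0.9185) and over all (-0.2034) and for pituitary minus brain at T1 (0.8193), and ovary minus brain over all turned to 0.1521. per3 levels gained a call for pituitary minus liver at T1 (1.3638), lost it for pituitary minus brain at T1 (0.6717) and turned for ovary minus liver at T1 (0.0028) and over all (0.5592) and for liver minus brain at T1 (-0.6921) and over all (-1.2261). The per3 change, ovary minus brain, turned to 0.0298. The cause was not tested beyond the scaling itself.

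Leaving out libraries gave these ranges. Calls were lost in per2 pituitary T2 1.204 to 1.6546, per2 pituitary T3 1.1662 to 1.4277, per2 pituitary T4 0.9423 to 1.1886. The sign turned in per2 liver T3 -0.0134 to 0.2358, per2 ovary T2 -0.1582 to 0.2036, per2 ovary T3 -0.1375 to 0.3719, per2 ovary T4 -0.2302 to 0.0944, per2 ovary mean -0.1053 to 0.1919, per3 brain T2 -0.6369 to 0.463, per3 brain T4 -0.202 to 0.7341, per3 brain mean -0.1373 to 0.6807, per3 ovary T2 -0.0241 to 0.2304, per3 ovary T4 -0.1659 to 0.1836. It also turned in the ratio ovary T2 -0.3109 to 0.0859, the ratio ovary T3 -0.5004 to 0.1057, the ratio ovary T4 -0.1844 to 0.1054. Without a change of sign or call the range was per2 brain T2 0.3888 to 1.1942, T3 0.5139 to 1.1871 and T4 0.3822 to 1.0208, per3 brain T3 0.0148 to 0.8292, and per3 pituitary T2 0.2366 to 0.6652, T3 0.0786 to 0.3777 and T4 0.2477 to 0.6567. For changes between tissues the range was per3 change liver minus brain -1.5243 to -0.5373, per3 change ovary minus brain -0.7112 to 0.1859, per3 change pituitary minus brain -0.3368 to 0.6121.

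DESeq2 called more genes than edgeR in pituitary (871, 745 and 1005 at T2, T3 and T4 in place of 489, 339 and 572) and ovary (566 and 1860 at T2 and T3 in place of 301 and 1121). limma called fewer in ovary (99, 442 and 1600 in place of 301, 1121 and 3515) and in liver (2512, 1078 and 1585 in place of 3810, 1945 and 2996). Ovary T2 had 192 calls without a filter and 195 with 16 libraries. With libraries left out, calls over all genes ranged from 13 to 1363 for pituitary T4 and from 1 to 2380 for ovary T3. The effect of depth on these values was not tested.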
